A study of Mus musculus with 3 samples.

Results

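The solute carrier mRNAs recovered with 3 target RNAs from mouse embryonic stem cells are described here. A gene was taken as a member when its symbol had the form Slc, a family number, the letter a and a member number, and when its counts summed to 100 or more over the libraries. Slc2a1, Slc2a3, Slc11a2 and Slc40a1 were left out by name. Of 26887 gene symbols listed, 324 had this form, 143 of them other than those 4 had fewer than 100 counts, and 177 genes remained among 13289 genes with 100 or more counts. All 177 were annotated as protein coding, and every one had counts in each of the libraries. The members were thus chosen by their summed counts, which also enter the values below, which are therefore given as a description without a test. Just inside the threshold, Slc22a5 had 12 counts in the Actb library, 30 in the Malat1 library and 63 in the Tfrc library, and Slc22a15 had 15, 37 and 54. Just outside it, Slc16a13 had 15, 21 and 63 counts and Slc1a2 had 10, 36 and 51.

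RNA interactome analysis (RIA-seq) fixes cells, pulls one target RNA out of the lysate with antisense oligonucleotides, and sequences the RNA that comes with it. It was used in this study to examine RNA-RNA contacts found by another method. Undifferentiated E14 cells of strain 129/Ola, a single embryonic stem cell line grown without feeder cells in serum and LIF, were fixed with 1% glutaraldehyde, and sonicated lysate was hybridized with oligonucleotides against one RNA. The groups were Actb antisense oligonucleotides (the β-actin mRNA, used as the control), Malat1 antisense oligonucleotides (a nuclear long non-coding RNA) and Tfrc antisense oligonucleotides (the transferrin receptor mRNA), with a single library for each. There was thus no replicate, and every interval given is a 95% interval that covers counting error only.

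Solute carriers are membrane proteins that move amino acids, sugars, ions, vitamins, nucleosides and metals across the plasma membrane and the membranes of organelles. Most of their mRNAs are translated on ribosomes at the endoplasmic reticulum, where the protein is inserted into the membrane as it is made. The SLC25 family differs from the rest in this respect: most of its proteins are made in the cytosol and then imported into the inner membrane of mitochondria. Embryonic stem cells depend on several carriers for amino acid, glucose and nucleoside uptake.

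The library totals were 10405209 counts for Actb, 10078439 for Malat1 and 14553941 for Tfrc, so 3 counts, taken as the smallest level the depth could show, corresponded to 0.288, 0.298 and 0.206 counts per 1000000 counts of the library (CPM). All 8 embryonic stem cell markers examined were present in each library, at summed levels of 3037, 3817 and 4248 CPM, against 18.9, 20.7 and 21.9 CPM for 6 fibroblast markers (mostly Thy1; Col3a1, Postn and Dcn were each at 0 in at least one library). The 3 neural markers summed to 27.9, 27 and 31.3 CPM and the 3 endoderm markers to 1.25, 5.75 and 3.50. The target Malat1 had 1834 CPM in the Actb library, 10657 in the Malat1 library and 7041 in the Tfrc library, so it was high in both of the latter. Tfrc had 43.5, 101 and 117 CPM and thus differed little between the Malat1 and Tfrc libraries. Actb itself took 73038 CPM of the library made with its own oligonucleotides and under 1000 CPM of each other library, and Lars2 took 320477, 169680 and 221866 CPM. Most other genes had a smaller share of the Actb library than of the others: the median gene was 1.86-fold higher in Malat1 than in Actb, 1.59-fold higher in Tfrc than in Actb and 1.15-fold higher in Malat1 than in Tfrc. Without the 10 largest genes of each library in the totals, the median gene was at 1.14, 1.12 and 1.00. Each fold below is a ratio of shares of the library total and is read against this median gene.

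One pair of carriers shows what the counts can and cannot resolve, and a stretch of their coding sequence is printed for that reason. Slc25a5 and Slc25a4 encode adenine nucleotide translocases, which exchange ADP and ATP across the inner mitochondrial membrane. Slc25a5 lies at chrX:34335646-34338802 on the plus strand of NCBIM37, and its coding sequence of 897 nt had 8 near-identical copies elsewhere in the genome (at least 90% identity over 200 nt). The best of them, inside the annotated pseudogene Gm5560 on chromosome 5, spanned the whole coding sequence with 17 differences (98.1% identity), whereas the coding sequence of Slc25a4, on the minus strand at chr8:47292151-47296638, is of the same length and differed from it at 202 positions. Coding positions 262 to 381 of Slc25a5, within an exon, are shown with the matching stretch of both (chrX:34336988-34337107, plus strand; chr5:97694108-97694227, plus strand; chr8:47294593-47294712, minus strand). Capitals mark the bases that differ from Slc25a5, 4 in the copy and 23 in Slc25a4.
Slc25a5: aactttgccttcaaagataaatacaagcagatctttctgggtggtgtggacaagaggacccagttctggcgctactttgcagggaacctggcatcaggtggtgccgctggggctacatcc
Copy in Gm5560: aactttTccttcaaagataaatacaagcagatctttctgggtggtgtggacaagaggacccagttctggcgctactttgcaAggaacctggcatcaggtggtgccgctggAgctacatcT
Slc25a4: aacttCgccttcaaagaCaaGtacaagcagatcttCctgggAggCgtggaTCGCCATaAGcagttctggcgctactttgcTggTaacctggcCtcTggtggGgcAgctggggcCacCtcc
A short read from Slc25a5 can therefore match its copy without a difference over much of this stretch. Gm5560 was listed with 242, 245 and 270 counts in the Actb, Malat1 and Tfrc libraries, beside 1381, 788 and 1965 for Slc25a5, and how reads with several matches were counted is not given in the sources used here. The value of Slc25a5 is uncertain to that extent. In all, 12 of the 177 genes had such a copy, and 66 overlapped another annotated gene.

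The members together took a larger share of the Malat1 and Tfrc libraries than of the Actb library. They held 35240 counts in Actb, 72153 in Malat1 and 85583 in Tfrc, which were 3387 (3352 to 3422), 7159 (7107 to 7211) and 5880 (5841 to 5920) CPM. The summed fold was 2.11 (2.09 to 2.14) for Malat1 over Actb, 1.74 (1.71 to 1.76) for Tfrc over Actb and 1.22 (1.21 to 1.23) for Malat1 over Tfrc. The 5 members with the most counts in a library held between 19% and 21.2% of these counts. Each share is of RNA recovered in a pull-down, with no input library beside it. Recovery and level in the lysate thus cannot be told apart. The lysates were bulk, so more cells with an mRNA and more of that mRNA per cell cannot be told apart either.

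In Malat1 over Actb, the median member fold was 2.22 (quartiles 1.78 and 2.85) against 1.86 for all genes, and 127 of 177 members (71.8%) lay above the median gene. A fold of 2 or more was found for 114 members (64.4%), where 44% of all genes reached it. The interval lay wholly above the median gene for 72 members (40.7%), against 30.7% of all genes, and wholly below it for 22 (12.4%), against 32.9%. The members thus departed from the background mostly by the small number of low folds, which the plot of fold distributions shows as a gap between the curves that is widest at their lower end.

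Tfrc over Actb uses the same Actb library as its denominator, so its values are given beside the former and not as a second line of evidence. The median member fold was 1.88 (1.52 to 2.45 between quartiles) against 1.59, and 124 members (70.1%) exceeded the median gene. There were 78 members (44.1%) with a fold of 2 or more, against 30.2% of all genes, and 70 (39.5%) had an interval above the median gene, against 29.2%. Only 21 (11.9%) had an interval below it, against 32%. Of the 177 members, 53 were above the median gene by interval in both comparisons and 15 were below it in both. Another 61 were on neither side in either, and 1 (Slc25a3) was above in Malat1 and below in Tfrc. These joint counts were not made for all genes and share the Actb library, so they are not read as a trait of the members.

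In the direct comparison of Malat1 with Tfrc, the members lay near the background. The median fold was 1.17 against 1.15 for all genes, and a fold of 2 or more was found for 2 members (1.13%), against 2.73% of all genes. One of the 2 was Slc10a1, named after its values were seen, which had only 9, 69 and 43 counts and a fold of 2.32 (1.58 to 3.39). An interval above the median gene was found for 48 members (27.1%), against 25.3%, and one below it for 30 (16.9%), against 26.1%.

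**Figure D1:**
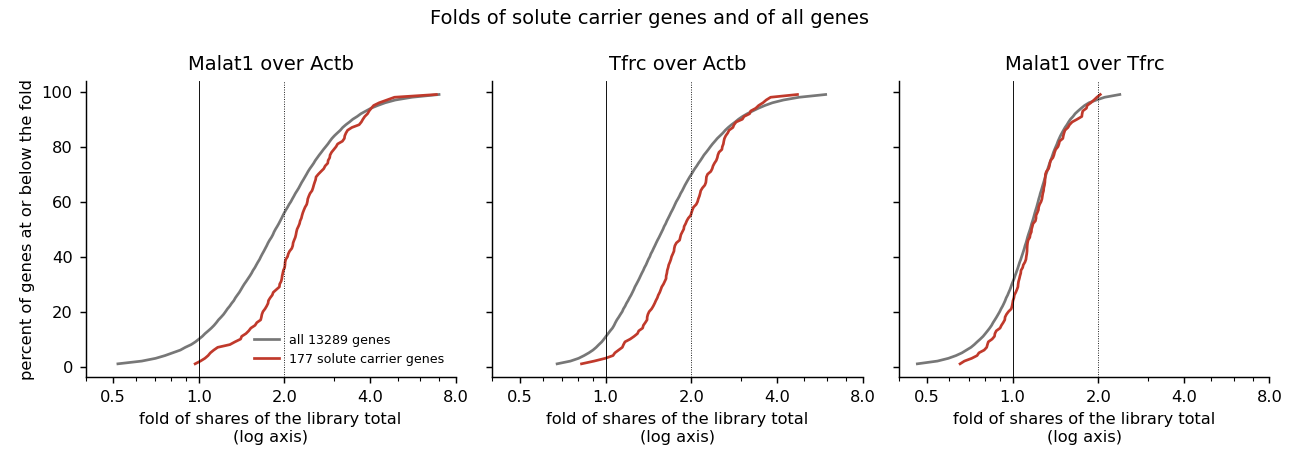
Percent of genes (vertical axis) at or below a given fold of shares of the library total (horizontal log axis) for the 177 solute carrier genes in red and all 13289 genes with 100 or more counts in grey, between the 1st and 99th percentile; the solid line is at a fold of 1 and the dotted line at 2. The red curve lies to the right of the grey one in Malat1 over Actb (medians 2.22 and 1.86) and Tfrc over Actb (1.88 and 1.59), and both nearly coincide in Malat1 over Tfrc (1.17 and 1.15).

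Members had higher medians over Actb than other genes in each band of counts. Among genes with 100 to under 300 summed counts, the median Malat1 over Actb fold was 2.22 for 62 members and 2.04 for all genes. From 300 to under 1000 counts it was 2.16 for 60 members against 1.88, from 1000 to under 3000 it was 2.36 for 34 members against 1.79, and from 3000 upward it was 2.09 for 21 members against 1.68. The corresponding Tfrc over Actb medians were 2.24 against 1.87, 1.75 against 1.62, 1.86 against 1.5, and 1.69 against 1.39. The counts in the band from 1000 to under 3000 allowed most members to be placed: 61.8% of members were above the median gene by interval in Malat1 over Actb, against 33.6% of all genes in the band, and 8.82% were below it, against 40.4%. Membership near the threshold of 100 depended on counts in these same libraries, so the lowest band is the least informative.

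The scale sets how many members reach a fold of 2. When the libraries were scaled by the median ratio over genes, 18 members (10.2%) reached it in Malat1 over Actb, against 7.68% of all genes, and 12 (6.78%) in Tfrc over Actb, against 6.78%. The counts of members above and below the median gene do not depend on the scale.

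Substrate classes were assigned by SLC family number. Amino acid carriers included several of the most abundant members. Per kb of merged exon, the levels of Ensembl-ID counts (mean over libraries, CPM per kb) were 40.8 for Slc7a5, 36.9 for Slc38a4, 36.7 for Slc6a6 and 35.8 for Slc3a2, all among the 7 highest of the 177. Slc7a5 and Slc3a2 encode the light and heavy chain of one exchanger of large neutral amino acids, LAT1 and CD98. Slc7a5, at chr8:124405052-124431594, had 1090, 1584 and 2504 counts in Actb, Malat1 and Tfrc, or 105, 157 and 172 CPM, and Slc3a2, at chr19:8781372-8797859, had 1022, 1414 and 1800, or 98.2, 140 and 124 CPM. Both were lowest in the Actb library, yet by less than the median gene in Malat1: the folds were 1.5 (1.39 to 1.62) for Slc7a5 and 1.43 (1.32 to 1.55) for Slc3a2. In Tfrc over Actb, Slc7a5 was at 1.64 (1.53 to 1.76), close to the median gene, and Slc3a2 at 1.26 (1.17 to 1.36), below it. Nearly all counts of Slc7a5 were Ensembl-ID counts. By these alone its folds were 1.48 (1.37 to 1.60) and 1.65 (1.53 to 1.77), against 1.45 and 1.29 for all genes. It thus lay close to the median gene in Malat1 and above it in Tfrc by this kind. Those of Slc3a2 were 1.29 and 1.18, below the median gene in both.

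The other amino acid carriers named were nearer to the median member. Slc7a1, a cationic amino acid transporter, had 106, 221 and 203 CPM, a fold of 2.09 (1.94 to 2.25) in Malat1 and 1.92 (1.79 to 2.06) in Tfrc over Actb. Slc7a3, of the same function, had 28.5, 67.5 and 53.2 CPM and folds of 2.36 and 1.86. Slc38a4, which carries neutral amino acids, had 110, 258 and 200 CPM, with folds of 2.34 (2.18 to 2.5) and 1.82 (1.70 to 1.95). In each of these the Actb library was lowest and the Malat1 library highest. Slc6a6, the taurine transporter and the member with the most counts in the Tfrc library, had 1798, 3487 and 4577 counts and folds of 2.00 (1.89 to 2.12) and 1.82 (1.72 to 1.92). The glutamine carrier Slc1a5 had folds of 2.36 and 2.01, the neutral amino acid carrier Slc38a2 of 1.78 and 1.71, and the creatine transporter Slc6a8 of 1.67 and 1.49. Slc1a3, a glutamate transporter, had the largest Malat1 fold of its class, with 107, 503 and 433 counts and a fold of 4.85 (3.94 to 5.98) in Malat1 over Actb and 2.89 (2.34 to 3.57) in Tfrc over Actb. Its relative Slc1a1 was among the lowest of the members, with 86, 82 and 135 counts and folds of 0.98 (0.73 to 1.33) and 1.12 (0.86 to 1.47). Over all 32 amino acid carriers, 12 (37.5%) were above the median gene by interval in Malat1 over Actb and 5 (15.6%) below, against 30.7% and 32.9% of all genes, and the median fold was 2.02.

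**Figure D2:**
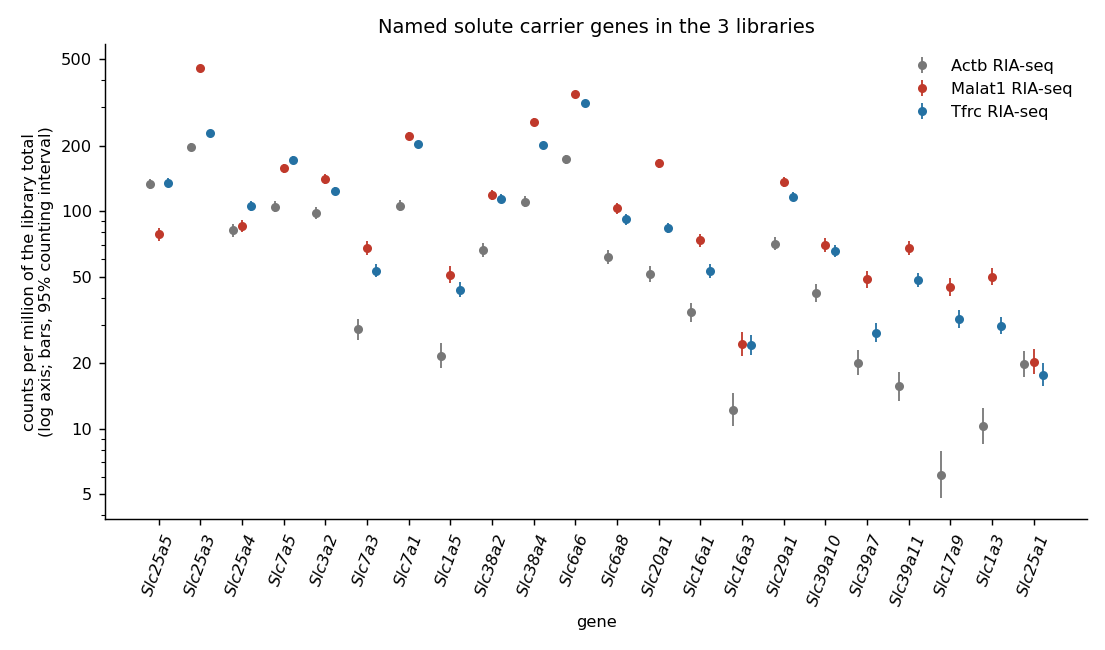
Counts per 1000000 counts of the library (CPM, vertical log axis) of 22 named solute carrier genes (horizontal axis) in the Actb (grey), Malat1 (red) and Tfrc (blue) libraries; bars are 95% counting intervals of the single library. Slc25a3 stands at 453 CPM in Malat1 against 228 in Tfrc, Slc25a5 is lowest in Malat1 (78.2), and Slc17a9 stands at 6.15 in Actb and 44.7 in Malat1.

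Carriers of inorganic ions and protons, which set cell volume, pH and phosphate and metal supply, were the largest class, with the mitochondrial carriers. Of the 33 members of this class, 29 (87.9%) had a fold of 2 or more in Malat1 over Actb, against 44% of all genes, and 22 (66.7%) in Tfrc over Actb, against 30.2%. By interval, 18 (54.5%) lay above the median gene in the former, against 30.7% of all genes, and 19 (57.6%) in the latter, against 29.2%. By interval, 0 lay below it in either, against 32.9% and 32% of all genes. The medians were 2.56 and 2.26. The sodium-phosphate cotransporter Slc20a1, at chr2:129024500-129037352, had 534, 1668 and 1218 counts, or 51.3, 166 and 83.7 CPM. It was thus highest in the Malat1 library, with a fold of 3.22 (2.93 to 3.55) over Actb and 1.98 (1.84 to 2.13) over Tfrc, while its Tfrc over Actb fold of 1.63 (1.47 to 1.81) was close to the median gene. It overlaps the annotated gene 9830144P21Rik. Slc12a2, a sodium-potassium-chloride cotransporter, was highest in Tfrc, with 22.7, 46.8 and 51.3 CPM and folds of 2.06 (1.77 to 2.41) and 2.26 (1.95 to 2.62). The sodium-proton exchanger Slc9a7 also leaned to Tfrc, with 33, 81 and 178 counts and a Malat1 over Tfrc fold of 0.66 (0.51 to 0.85). The bicarbonate-chloride exchanger Slc4a3 leaned to Malat1, with 38, 85 and 62 counts and a fold over Tfrc of 1.98 (1.43 to 2.75).

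The 8 monocarboxylate and dicarboxylate carriers all had a fold of 2 or more in Malat1 over Actb, against 44% of all genes, with a median of 3.00, and 5 of 8 did in Tfrc over Actb, against 30.2%, with a median of 2.43. The lactate transporter Slc16a1 had 356, 739 and 771 counts and folds of 2.14 (1.89 to 2.43) and 1.55 (1.37 to 1.76). Slc16a3, the lactate exporter of glycolytic cells, had 127, 247 and 352 counts and folds of 2.01 (1.62 to 2.49) and 1.98 (1.62 to 2.43), and it overlaps Csnk1d. The class medians above these values came from members with fewer counts: the remaining genes past 2.5-fold in Malat1 each had between 16 and 101 counts in the Actb library.

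Zinc carriers were the class with the lowest median, 1.76 in Malat1 over Actb and 1.56 in Tfrc over Actb over 15 members, with 5 (33.3%) above and 3 (20%) below the median gene by interval in the former, against 30.7% and 32.9% of all genes. In the latter 4 (26.7%) were on each side, near the 29.2% and 32% of all genes. The class was mixed. Slc39a11, a zinc transporter of the ZIP family whose gene overlaps Cog1 and Sstr2, had 163, 682 and 698 counts and folds of 4.32 (3.64 to 5.12) and 3.06 (2.58 to 3.63). Slc30a7, which loads zinc into the secretory pathway, had 100, 326 and 450 counts and folds of 3.37 (2.69 to 4.21) and 3.22 (2.59 to 4.0). Both stood far above the class median. Slc39a1, a plasma membrane importer, had 172, 177 and 200 counts and folds of 1.06 (0.86 to 1.31) and 0.83 (0.68 to 1.02), and its coding sequence has a near-identical copy. Slc30a5 had folds of 1.41 and 1.08, Slc39a10 of 1.66 and 1.56, and Slc39a7, an importer into the cytosol from the endoplasmic reticulum, of 2.42 (2.05 to 2.84) and 1.38 (1.16 to 1.63).

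The smaller classes varied. The 5 vesicular transmitter carriers were the class whose Tfrc over Actb median, 2.61, exceeded its Malat1 over Actb median, 1.92, by the most. Its member Slc17a9, the vesicular nucleotide transporter, at chr2:180459968-180476985, had 64, 451 and 464 counts, or 6.15, 44.7 and 31.9 CPM. It was therefore low in Actb and high in both other libraries, and its folds of 7.28 (5.60 to 9.45) and 5.18 (3.99 to 6.73) were the largest of members with 50 or more counts in both libraries. The 12 sugar carriers, Slc2a1 and Slc2a3 not among them, had medians of 2.44 and 1.65. The 11 carriers of organic ions, bile acids and peptides had medians of 2.44 and 2.52. Slc22a17, a member of that class, had 25, 59 and 128 counts and a Malat1 over Tfrc fold of 0.67 (0.49 to 0.91). The 23 carriers of vitamins, nucleosides, lipids and cofactors had medians of 2.02 and 1.76. Their most abundant member, the nucleoside transporter Slc29a1, had 70.8, 136 and 116 CPM and folds of 1.92 (1.76 to 2.10) and 1.64 (1.51 to 1.79), both close to the median gene. The haem transporter Slc48a1 had 115, 156 and 128 counts, and its Tfrc over Actb fold of 0.80 (0.62 to 1.02) was the second smallest of members with 50 or more counts in both. The 5 nucleotide sugar carriers, which supply the Golgi apparatus, had medians of 2.13 and 1.91.

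**Figure D3:**
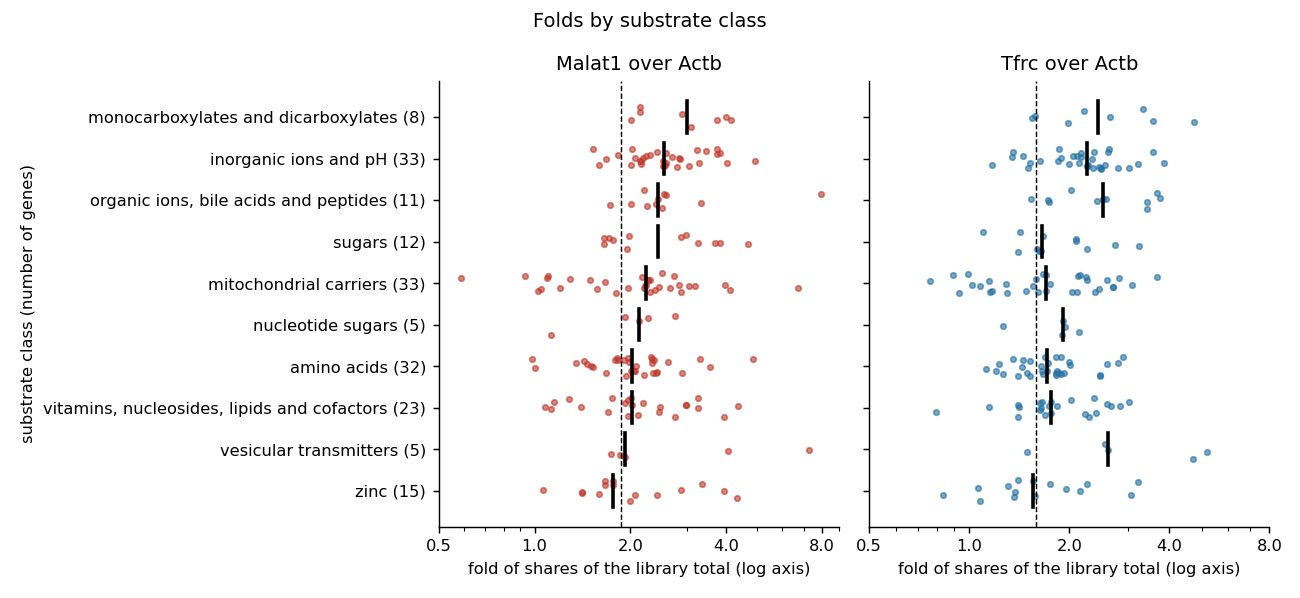
Folds of shares of the library total (horizontal log axis) of the 177 solute carrier genes by substrate class (vertical axis, number of genes in brackets), one point a gene, in Malat1 over Actb (left) and Tfrc over Actb (right); black bars are class medians and the dashed line is the median of all genes. Inorganic ion carriers centre at 2.56 and 2.26, zinc carriers at 1.76 and 1.56, and mitochondrial carriers at 2.24 and 1.70. Mitochondrial carriers hold 6 of the 10 smallest folds in either panel.

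The mitochondrial carriers were the 33 of 177 members of family SLC25, not sorted by where each protein resides. They included the most abundant members per kb and 6 of the 10 smallest folds in Malat1 over Actb, likewise 6 of 10 in Tfrc over Actb. Their median folds were nevertheless 2.24 and 1.70, against 2.20 and 1.90 for the 144 other members. A fold of 2 or more was reached by 20 (60.6%) and 14 (42.4%), against 44% and 30.2% of all genes. In Malat1 over Actb 13 (39.4%) were above the median gene by interval and 8 (24.2%) below it, against 30.7% and 32.9% of all genes. In Tfrc over Actb 12 (36.4%) were above and 10 (30.3%) below, near the 29.2% and 32% of all genes. Slc25a5, with 133, 78.2 and 135 CPM, was the member with the highest level per kb (69.9 CPM per kb) and the lowest fold in Malat1 over Actb, 0.59 (0.54 to 0.64). Its level in Tfrc was close to that in Actb, at 1.02 (0.95 to 1.09), so that Malat1 over Tfrc was 0.58 (0.53 to 0.63). Slc25a4, also among the most abundant per kb, had 848, 860 and 1534 counts, and was likewise lower in Malat1 than in Tfrc, at 0.81 (0.74 to 0.88), with a Malat1 over Actb fold of 1.05 (0.95 to 1.15). Slc25a4 has no near-identical copy by the same criterion.

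Slc25a3, the mitochondrial phosphate carrier, at chr10:90579319-90586804, went the other way. It had 2052, 4563 and 3314 counts, or 197, 453 and 228 CPM, and was much higher in the Malat1 library than in both others. The folds were 2.30 (2.18 to 2.42) in Malat1 over Actb, 1.15 (1.09 to 1.22) in Tfrc over Actb and 1.99 (1.90 to 2.08) in Malat1 over Tfrc. The gene contains an annotated small nucleolar RNA, SNORA53, whose part in the counts was not tested. The calcium-dependent ATP-Mg carrier Slc25a23 leaned to Tfrc, with 80, 176 and 346 counts and a Malat1 over Tfrc fold of 0.73 (0.61 to 0.88). Slc25a1, the citrate carrier, had 206, 205 and 257 counts and folds of 1.03 (0.85 to 1.25) and 0.89 (0.74 to 1.07), and Slc25a39, a glutathione carrier, had 684, 617 and 889 counts and folds of 0.93 (0.84 to 1.04) and 0.93 (0.84 to 1.03). Both of these lay below the median gene in either comparison. The largest Malat1 over Actb fold among mitochondrial carriers with 50 or more counts in both was that of Slc25a26, the S-adenosylmethionine carrier, with 95, 379 and 376 counts and folds of 4.12 (3.29 to 5.16) and 2.83 (2.26 to 3.54). By kind of count its Malat1 over Actb fold was 1.72 (Ensembl-ID) and 5.40 (Genome), and its gene overlaps Lrig1.

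The deposited tables hold up to 2 counts for a gene in a library, one under its Ensembl identifier and one under the reference name Genome, and the members were richer than other genes in the second kind. Genome counts made up 16.7% (Wilson interval 16.3 to 17.1) of member counts in Actb, 32% in Malat1 and 29.2% in Tfrc. Over protein-coding genes with introns the shares were 5.86%, 20.8% and 17.4%. The median over single members was 18.8%, 32.4% and 30.6%, against 12.8%, 28.2% and 25.1% over protein-coding genes with introns and 11.2%, 25.2% and 22.3% over all genes. The Genome share was higher in Malat1 than in Actb for 153 members (86.4%, against 80.9% of all genes) and higher in Tfrc than in Actb for 154 (87.0%, against 80.1%).

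The Genome share of a member followed the length of its introns. As a description across genes, which share libraries and are not replicates, Spearman's rho was 0.46 over the 177 members, 0.68 over the 55 with 1000 or more counts and 0.66 over 11479 protein-coding genes with introns, while with exon length it was -0.04, 0.16 and 0.25. The median share was 17.6% for the 59 members with the shortest introns (0.488 to 15.4 kb), 33.4% for the middle 59 and 42.2% for the 59 with the longest (35.8 to 555 kb). Among members with 1000 or more counts, Slc39a11 (401.9 kb of intron) had the largest share, 87.2%, followed by the bile acid carrier relative Slc10a7 with 85.1%, Slc25a40 with 83.3% and the aspartate-glutamate carrier Slc25a13 with 76.2%. The smallest shares were those of Slc39a7 (0.18%), Slc25a5 (0.24%), Slc25a3 (0.39%) and Slc7a5 (0.73%). The first 3 of these have introns under 2 kb in all, but Slc7a5 has 23 kb. The annotated gene Gm20388, which overlaps Slc7a5, was listed with 25087 Genome counts over the libraries. Of the 102 members with at least 20 kb of intron, 4 had a Genome share under 5%, Slc7a5, Slc7a14, Slc25a16 and Slc28a3, the last 3 named after their values were seen.

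**Figure D4:**
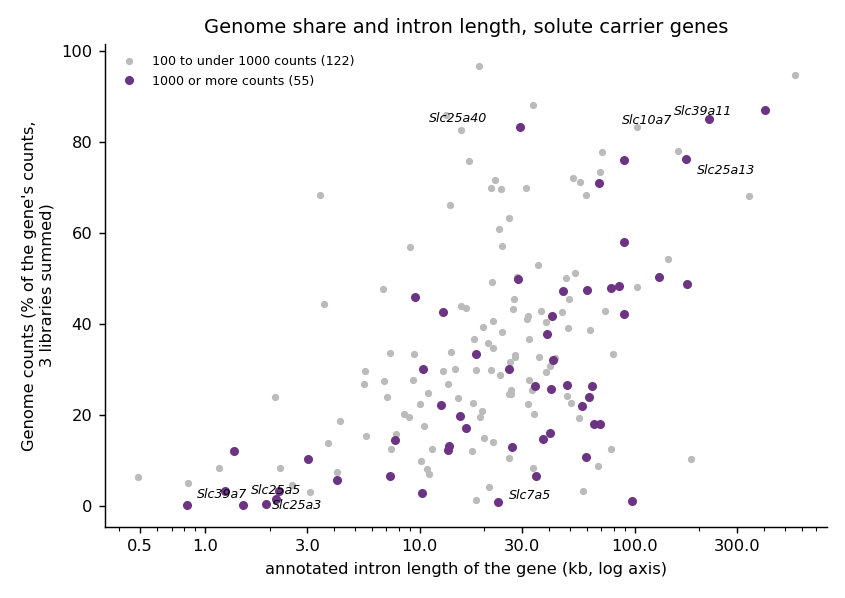
Genome counts as percent of the counts of a gene over the 3 libraries (vertical axis) against annotated intron length in kb (horizontal log axis) for 55 solute carrier genes with 1000 or more counts (purple) and 122 with fewer (grey). The share climbs with intron length from Slc39a7 (0.18%) to Slc39a11 (87.2%), and Slc7a5, with 23 kb of intron and 0.73%, lies off the trend.

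The kinds of count gave different folds. Genome counts alone had member medians of 3.88 in Malat1 over Actb and 3.02 in Tfrc over Actb, close to the 3.78 and 2.96 of all genes. Ensembl-ID counts alone had member medians of 1.78 and 1.59 against 1.45 and 1.29, so members and other genes differed more by this kind. The medians also differed between genes of like Genome share. For a share under 10%, the Malat1 over Actb median of both counts was 1.66 for 27 members against 1.43, from 10% to under 30% it was 2.05 for 65 against 1.67, from 30% to under 60% it was 2.36 for 57 against 2.13, and from 60% it was 3.09 for 28 against 2.93. The Tfrc over Actb medians were 1.42 against 1.25, 1.82 against 1.44, 2.02 against 1.80, and 2.59 against 2.55. Shares above the median gene by interval did not differ alike. Under 10%, they were 25.9% of members against 19.4% of all genes in Malat1 over Actb, but 3.70% against 16.5% in Tfrc over Actb. In both bands between 10% and 60% members were more often above it in either comparison. From 60% the shares were 64.3% against 66.6% in Malat1 and 71.4% against 72.7% in Tfrc. Slc25a13 shows how far the kinds can part: its Malat1 over Actb fold was 0.97 by Ensembl-ID counts and 4.49 by Genome counts. Slc17a9 was high by either, at 6.25 and 7.74, and so was Slc1a3, at 5.30 and 4.67.

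By Ensembl-ID counts, the mitochondrial carriers were close to the median gene and the other members were above it. Among genes with at least 10 such counts in both libraries, the Malat1 over Actb median was 1.5 for 32 mitochondrial carriers, 1.83 for 132 other members and 1.43 for 12371 genes. The Tfrc over Actb medians were 1.26, 1.61 and 1.27. Of the mitochondrial carriers, 17 of 32 exceeded the median gene in Malat1 and 16 of 32 in Tfrc, while 98 (74.2%) and 99 (75%) of the 132 other members did. By interval in Malat1 over Actb, 8 mitochondrial carriers (25%) were above the median gene and 11 (34.4%) below, near the 29.6% and 29.5% of all genes, whereas 61 other members (46.2%) were above and 10 (7.58%) below. In Tfrc over Actb, 8 mitochondrial carriers (25%) were above and 10 (31.3%) below, near the 26.2% and 26.1% of all genes, whereas 65 other members (49.2%) were above and 7 (5.30%) below. By Genome counts the order turned. The Malat1 over Actb medians were 4.74 for 32 mitochondrial carriers and 3.79 for 141 other members with such counts in both libraries. In Tfrc over Actb they were 3.59 and 2.94. The contrast by Ensembl-ID counts was looked for after the folds had been seen.

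Exon length differed between these groups and moved with the fold, so the values are given within bands of it. Mitochondrial carriers had a median of 2.90 kb of merged exon and the other members 4.24 kb. Under 2.5 kb, the Malat1 over Actb medians were 1.24 for 12 mitochondrial carriers, 1.80 for 12 other members and 1.21 for all genes. Between 2.5 and 4 kb they were 1.40 for 9, 1.85 for 47 and 1.38. Between 4 and 6 kb the order turned, with 1.89 for 9 mitochondrial carriers and 1.77 for 40 other members, against 1.48 for all genes. In Tfrc over Actb the mitochondrial carriers were lower than the other members in each of these bands: 1.16 against 1.44 under 2.5 kb, 1.11 against 1.43 between 2.5 and 4 kb, and 1.33 against 1.63 between 4 and 6 kb. All genes were at 1.12, 1.26 and 1.33. Only 2 mitochondrial carriers had 6 kb or more. In Malat1 over Tfrc the Ensembl-ID medians were 1.01 for the mitochondrial carriers, 1.12 for the other members and 1.10 for all genes. Leaving out Slc25a3, Slc25a4 and Slc25a5, which hold many of the counts, the summed Ensembl-ID fold of the other 30 mitochondrial carriers was 1.39 (1.33 to 1.45) in Malat1 over Actb and 1.31 (1.25 to 1.36) in Tfrc over Actb, beside 1.83 (1.80 to 1.86) and 1.57 (1.55 to 1.60) for the 144 other members.

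**Figure D5:**
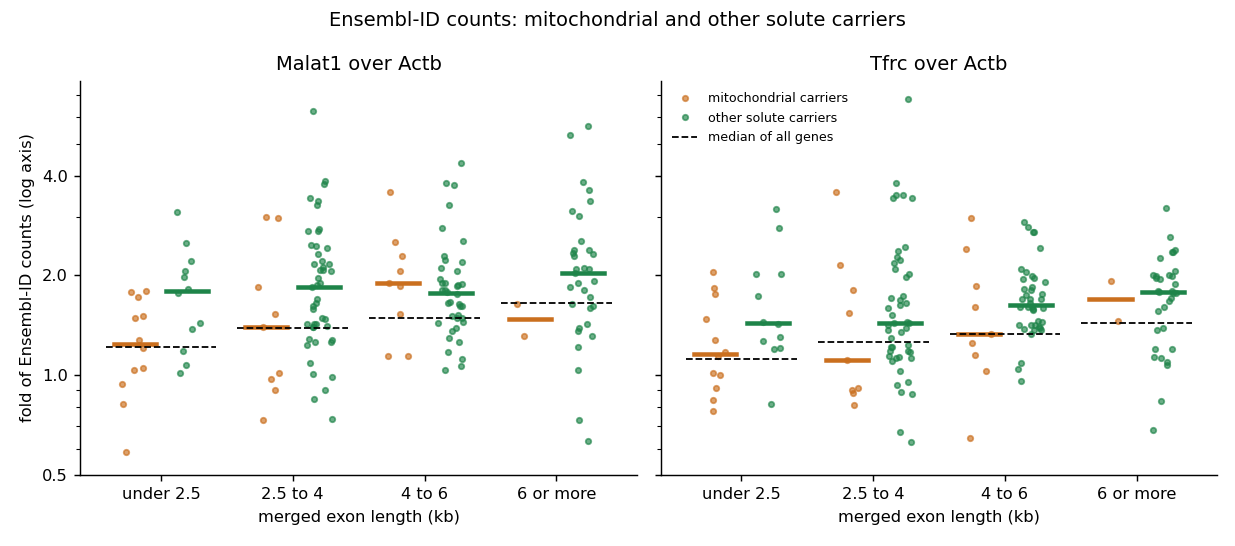
Folds of Ensembl-ID counts (vertical log axis) in Malat1 over Actb (left) and Tfrc over Actb (right) by merged exon length in kb (horizontal axis), one point a gene with at least 10 such counts in both libraries; orange is mitochondrial carriers, green other solute carriers, coloured bars their medians and dashed lines the medians of all genes in the band. The green medians lie above the dashed lines in every band. In Malat1 the orange ones lie near the dashed lines under 4 kb (1.24 and 1.40, against 1.21 and 1.38). In Tfrc the orange medians there are 1.16 and 1.11, against 1.12 and 1.26.

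Membrane transport genes whose symbols lacked the form of the members, some of them solute carriers too, were set beside the members. The 67 such genes (29 ABC transporters, 12 ion pump subunits, 13 Mfsd genes, 5 Slco organic anion carriers and 8 mitochondrial Ucp, Mtch and Sfxn genes) had median folds of 2.08 in Malat1 over Actb and 1.94 in Tfrc over Actb, and 36 (53.7%) and 32 (47.8%) had a fold of 2 or more, against 44% and 30.2% of all genes. By interval, 25 (37.3%) were above and 16 (23.9%) below the median gene in Malat1 over Actb, against 30.7% and 32.9% of all genes. In Tfrc over Actb 31 (46.3%) were above and 15 (22.4%) below, against 29.2% and 32%. All 5 Slco genes, themselves solute carriers with proteins in the plasma membrane, had a fold of 2 or more in both. Their medians were 3.46 and 2.92. The medians were 2.05 and 1.98 for the ABC transporters and 2.04 and 1.65 for the ion pump subunits. The 13 Mfsd genes had medians of 1.74 and 2.01, and the 8 mitochondrial genes of 1.99 and 1.41. Of the carriers left out by name, Slc2a3 and Slc2a1, glucose transporters of the plasma membrane, had 4540, 10089 and 8851 counts and 3251, 7418 and 10224 counts, more than any member in each library. Their folds were 2.29 and 2.36 in Malat1 over Actb and 1.39 and 2.25 in Tfrc over Actb.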

How the data were processed

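RIA-seq libraries from mouse E14 ES cells, 1 per set of antisense oligonucleotides, were grouped by the labels. The authors deposited raw read counts for each gene and reference name, without normalization. Per the labels, Bowtie 0.12.7 and the builds mm9 and NCBIM37 were named in the submitters' processing notes. The counting rule is not given in the sources used here. Ensembl-ID and Genome counts were summed for each gene and divided by the library total, with a pseudocount of 0. Fold intervals (95%, log scale) and Wilson intervals cover counting error only, and no test between conditions was made. Depth was 10405209 (Actb), 10078439 (Malat1) and 14553941 (Tfrc) counts.

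Members, classes and lists were chosen with earlier results of these data known. Classes followed SLC family numbers. Genes were named by level per kb (6), by the 4 largest and 4 smallest folds in a comparison (50 or more counts in both libraries) or Genome shares (1000 or more summed counts), by closeness to the threshold, or from a list of carriers. Positions, exons and introns came from GENCODE on NCBIM37, where 98.65% of identifiers were found, and copies from BLAST+ 2.17.0. The fold computation was tested on simulated counts. Alternatives changed the scaling, kind of count, pseudocount, filter and member threshold. Sets without copies or overlapping genes, and bands of exon length and Genome share, were added after the data were seen. Computation used pandas 2.3.3 with numpy 2.4.6 under Python 3.11.15, intervals scipy 1.17.1, and plots matplotlib 3.10.9. One gene that the naming rule picks is not reported here.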

Additional observations from a re-analysis of the deposited data

Results flagged for a closer look

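Slc25a3 was the 1 member whose counting intervals over Actb lay wholly on opposite sides of the median gene in the Malat1 and Tfrc libraries. Its fold relative to the median gene was 1.23 in Malat1 (interval 1.17 to 1.30) and 0.726 in Tfrc (0.687 to 0.767). With 1 library for each, the difference was not tested.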

How the results depend on the processing

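No paired analysis was possible because each condition had 1 library. A scaling multiplies every fold of a comparison by 1 factor, so it moves the members and all genes alike. In the order Malat1 over Actb, Tfrc over Actb and Malat1 over Tfrc, the members' median was 1.18, 1.13 and 1.03 with the median ratio. It was 1.22, 1.17 and 1.03 with the 75th percentile, and 1.35, 1.32 and 1.01 with library totals without the 10 largest genes of each library. With the median ratio, 18, 12 and 1 members (10.2%, 6.78% and 0.565%) had a fold of 2 or more, against 7.68%, 6.78% and 1.27% of all genes. With the 75th percentile 22, 15 and 1 did (12.4%, 8.47% and 0.565%, against 8.77%, 7.52% and 1.28%). With the reduced totals 28, 21 and 1 did (15.8%, 11.9% and 0.565%, against 12.2%, 11.1% and 1.14%). With Ensembl-ID counts alone the medians were 1.78, 1.59 and 1.10 (all genes 1.45, 1.29 and 1.10). There were 65, 44 and 7 members at 2 or more (36.7%, 25% and 3.98%), against 26.6%, 16.9% and 4.06% of all genes. With Genome counts alone the medians were 3.88, 3.02 and 1.29. A fold of 2 was reached by 161, 151 and 16 members (93.1%, 87.3% and 9.09%, against 87.5%, 79.1% and 12.4% of all genes). By this kind, 24, 18 and 26 members (13.9%, 10.4% and 14.8%) were above the median gene, against 11.3%, 11.1% and 17.3% of all genes, so the excess of high intervals over Actb was small in Malat1 and absent in Tfrc, and 19 (10.8%, against 18.1%) were below it in the last. The larger of the counts gave medians of 2.06 and 1.71 over Actb and 5 members at 2 or more in Malat1 over Tfrc. With at least 50 counts in both libraries, 69, 39 and 1 members reached 2, of 116, 116 and 160, and the Tfrc over Actb median was 1.73. Of the 55 members with 1000 or more counts, 36, 19 and 0 (65.5%, 34.5% and 0%) reached 2, against 44%, 30.2% and 2.73% of all genes. By interval, 33, 26 and 24 (60%, 47.3% and 43.6%) were above the median gene, against 30.7%, 29.2% and 25.3% of all genes. There were 8, 9 and 13 (14.5%, 16.4% and 23.6%) below it, against 32.9%, 32% and 26.1%. The shares above and below were both larger than among all 177 members. The Genome shares in Actb, Malat1 and Tfrc were 15.2%, 30.0% and 27.1% in these 55, 18.8%, 32.4% and 30.6% as medians over members and 19.1%, 36.6% and 33.3% without the 5 members with the most counts. A pseudocount of 1, a minimum of 10 counts, and leaving out members with copies or overlapping genes moved no median beyond its spread. Of the 111 members without overlapping genes, 35.1%, 39.6% and 21.6% were above the median gene by interval. Of all genes, 30.7%, 29.2% and 25.3% were. The excess in Malat1 over Actb was thus smaller than with all 177 members. The depth allowed a member to be placed above or below the median gene in 94 of 177 cases in Malat1 over Actb.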
